A study of Mus musculus with 34 samples.

Results

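The genes of the mouse major histocompatibility complex (MHC, named H2 in mice) and of the machinery that loads peptides onto its products were followed in epididymal fat across diets and generations. Members were all probes whose single annotated symbol starts with H2- or is B2m, Cd74, Ciita, Tap1, Tap2, Tapbp, Psmb8, Psmb9 or Psmb10, chosen by name and not by value. This gave 39 genes from 42 probes, of 22879 features tested over 25344 probes. They comprise 8 class II genes, 2 companions of class II (Cd74 and Ciita), 21 class I genes, 7 genes of peptide processing and loading, and H2-Ke6, which carries the H2 name but encodes a hydroxysteroid dehydrogenase and was kept outside the classes. The platform lists H2-Ea without a gene identifier that matched the reference gene table; the other 38 members matched. Of the 39, 35 lie on chromosome 17, while Ciita, Cd74, B2m and Psmb10 lie elsewhere.

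The study asked how a high fat diet kept up over generations acts on fat tissue. HF4, HF3, HF1 and HF0 are mice fed a high fat diet: HF0 were born to STD mice, HF1 to HF0, HF3 to HF2 mice (a generation not analysed here), and HF4 to HF3. HF4-REV, HF3-REV and HF1-REV had the same parental generation as HF4, HF3 and HF1 but were fed a normal diet, and STD mice were fed a normal diet. The labels used here give no strain, age or number of animals per RNA extract. RNA of one group in Cy3 and of another in Cy5 was hybridised on each of 34 two-colour arrays, in 17 dye-swap pairings: 6 in experiment 1 (all pairings of HF4, HF3, HF0 and STD, RNA extracted with Trizol) and 11 in experiment 2 (all pairings of HF4, HF3, HF1 and HF0, HF0 with STD in 2 swaps, and each of HF4, HF3 and HF1 with its REV group, RNA extracted with Qiagen reagents).

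Class I molecules pair a heavy chain (H2-K1, H2-D1) with beta-2 microglobulin (B2m) and display peptides from inside the cell on nearly all cell types. The immunoproteasome subunits Psmb8, Psmb9 and Psmb10 help cut these peptides, the Tap1-Tap2 transporter carries them into the endoplasmic reticulum, and tapasin (Tapbp) helps load them. Class II molecules (alpha and beta chains such as H2-Aa with H2-Ab1) display peptides taken up from outside, mainly on macrophages, dendritic cells and B cells. Their groove is first filled by the invariant chain (Cd74), the H2-DM heterodimer (H2-DMa, H2-DMb1) exchanges its remnant for a peptide, H2-O (H2-Oa, H2-Ob) restrains H2-DM, and Ciita is the class II transactivator. In adipose tissue, macrophages, and to a lesser degree adipocytes themselves, are known to carry class II.

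All values are log ratios, taken as base 2 (a natural log cannot be told apart from it here). Each is turned so that the group named before "over" or "against" is divided by the one after it, under a Cy5 over Cy3 coding. The labels do not settle the numerator dye of the deposited table. A positive value thus stands for more RNA in that group under a Cy5 numerator and for less under a Cy3 numerator. Relations among genes and among comparisons hold on either reading. A fitted value is given ± SE; HF4, HF3, HF0 and STD have n = 2 experiments, while HF1 and the REV groups have n = 1. The adjusted p comes from limma over all features, with a threshold of 0.05. Where pairings are taken as replicates instead, they share extracts, so those p-values are too small and the counts are descriptions. Counts of members with an unadjusted p under 0.05 are given without the share of all features. They are therefore descriptions and no result about the members.

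Several properties of the arrays bear on every result. Some members carried a dye component of their own, the mean of the Cy5 over Cy3 ratios before they were turned. It was 0.78 for B2m, 0.70 for H2-Ab1, 0.70 for H2-Eb1 and 0.58 for H2-D1, and -0.77 for H2-M10.4 and -0.74 for H2-M10.1, against -0.31 to 0.39 between the 5th and 95th percentiles of all features. It cancels in the mean of a swap but makes the arrays of a pairing differ in sign for these genes. The pairings of experiment 1 did not add up for class II. H2-Aa stood at -1.03 in HF0 over STD and at -0.79 in HF3 over HF0, which sum to -1.82, yet the direct pairing of HF3 over STD gave 0.78. The residual SD of the pairings around the group values was 0.87 for H2-Aa in experiment 1 and 0.18 in experiment 2. Over class II its median was 0.42 in experiment 1 and 0.12 in experiment 2, against 0.20 and 0.17 over all features. Group values assume that each group's RNA was the same in all its pairings of an experiment, and for class II in experiment 1 the pairings did not add up; whether RNA or an array differed between pairings was not tested. A fit averages HF4, HF3 and HF0 over both experiments, so experiment 1 also enters their comparisons with HF1 and the REV groups. Direct arrays or pairings are therefore given beside fitted class II values in most of these comparisons. The extracts differed in transcripts of the male tract that touches this fat. The median of 12 male germ cell markers lay between -4.59 (HF1-REV) and 1.91 (HF4) in experiment 2, and that of 10 epididymis markers was 3.84 in STD of experiment 2 and between -2.57 and -0.87 in the other groups of that experiment.

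In HF4 against HF4-REV, 33 of 39 members were negative and 8 passed the threshold, all of them negative. They were the immunoproteasome subunits Psmb9 and Psmb10, the transporter subunit Tap1, both chains of the class II peptide exchanger (H2-DMa and H2-DMb1), the class I genes H2-T22 and H2-Q10, and H2-Ke6. These 8 are 20.5% of the members, beside 11.2% of all 22879 features called in this comparison and 3.8% called negative. The class II median was -0.82, the class I median -0.45 and the processing median -0.64, against 0.03 for all features. HF4 and HF4-REV mice were born to the same generation and differed in diet.

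The class II pathway held the most negative values. H2-Aa, the alpha chain of the H2-A molecule, stood at -2.38 and -2.98 on the arrays of HF4 over HF4-REV, with a fitted value of -2.58 ± 0.62 (limma adjusted p = 0.0503). Cd74 stood at -2.58 and -2.34 (-2.57 ± 0.75, adjusted p = 0.0773). Neither passed the threshold, although both arrays were far below 0.

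H2-DMa stood at -2.18 and -2.65 (-2.39 ± 0.53, limma adjusted p = 0.0415) and H2-DMb1 at -1.70 and -1.83 (-1.74 ± 0.28, limma adjusted p = 0.0219). The probe pair of H2-DMb1 gave -1.79 and -1.68. Both chains of the exchanger were negative on both arrays, and both passed.

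The chains H2-Ab1 and H2-Eb1 showed the dye component described above. H2-Ab1 stood at 0.34 with HF4 in Cy5 and at -1.81 with HF4 in Cy3 (-0.76 ± 0.27, limma adjusted p = 0.119), and H2-Eb1 at 0.17 and -1.83 (-0.87 ± 0.31, adjusted p = 0.114). Their swap means were negative, but 1 array of each was positive. H2-Oa (-0.25 ± 0.22) and H2-Ob (0.01 ± 0.26), which form the inhibitor of H2-DM, and Ciita (-0.04 ± 0.17) lay near 0, and H2-Ea, an alpha chain that some laboratory strains do not express, was positive (0.46 ± 0.15, adjusted p = 0.0993).

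**Figure D1:**
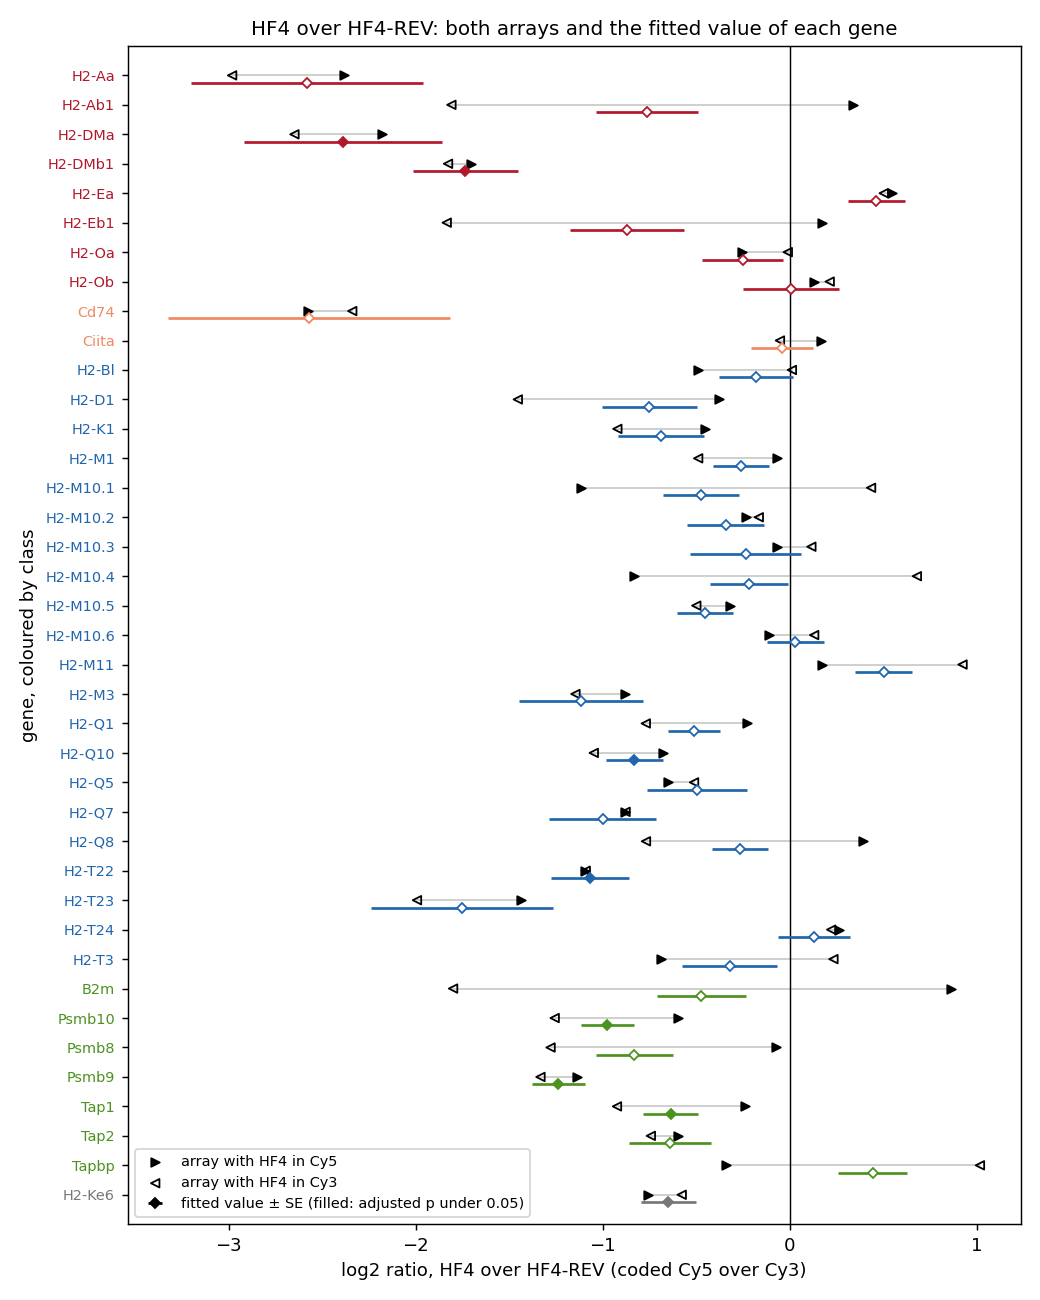
Log2 ratios of HF4 over HF4-REV for the 39 genes, with both arrays as triangles and the fitted value ± SE as a diamond, filled where the adjusted p was under 0.05; gene names are coloured by class. The 8 filled diamonds all lie below 0, and H2-Aa, Cd74 and H2-DMa lie farthest left, while B2m, H2-Ab1 and H2-Eb1 have their arrays on either side of 0.

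Among processing genes, Psmb9 stood at -1.14 and -1.33 (-1.24 ± 0.14, limma adjusted p = 0.0126), the lowest adjusted p of any member. Psmb10 stood at -0.60 and -1.26 (-0.98 ± 0.14, limma adjusted p = 0.0183), and Tap1 at -0.24 and -0.92 (-0.64 ± 0.15, limma adjusted p = 0.0458). Psmb8 (-0.83 ± 0.20, adjusted p = 0.0522) and Tap2 (-0.64 ± 0.22, adjusted p = 0.109) had both arrays negative without passing. B2m, the shared light chain, had its arrays at 0.86 and -1.80 (-0.47 ± 0.24, adjusted p = 0.232). Tapbp had the opposite sign to the others, at 0.44 ± 0.19 (adjusted p = 0.166), with arrays at -0.34 and 1.02.

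Of the 21 class I genes, 18 were negative and 2 passed. H2-T23 encodes Qa-1, which shows leader peptides of other class I chains to receptors of natural killer cells. It stood at -1.44 and -1.99 (-1.75 ± 0.49, adjusted p = 0.0678). H2-T22, a ligand of some gamma delta T cells, stood at -1.09 on both arrays (-1.07 ± 0.21, limma adjusted p = 0.0302); its probe pair gave -1.39 and -0.75.

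H2-Q10, a secreted class I molecule known from liver, stood at -0.68 and -1.05 (-0.83 ± 0.15, limma adjusted p = 0.0274). H2-M3, which presents formylated peptides, was at -1.12 ± 0.33 (adjusted p = 0.0804) and H2-Q7 stood at -0.88 on both arrays (adjusted p = 0.0742). The classical H2-K1 (-0.69 ± 0.23, adjusted p = 0.103) and H2-D1 (-0.75 ± 0.25, adjusted p = 0.105) had both arrays negative and did not pass. The 6 genes H2-M10.1 to H2-M10.6, known from the vomeronasal organ, ran from -0.47 to 0.03. H2-M11 was positive on both arrays, at 0.17 and 0.92 (0.50 ± 0.15, adjusted p = 0.083). H2-Ke6, outside the classes, was at -0.65 ± 0.15 (limma adjusted p = 0.0447). Class I genes resemble each other closely in sequence, so a probe may read more than 1 of them.

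Lists of cell type markers were measured in the same comparison. Of 15 macrophage markers 12 were negative (median -1.04, 3 called), of 11 T cell markers 10 (median -0.59, 0 called), of 10 dendritic cell markers 7 (median -0.47, 0 called), of 10 adipocyte markers 9 (median -0.67, 1 called) and of 15 interferon response genes 12 (median -0.74, 2 called), while 5 of 8 B cell markers were positive (median 0.17, 0 called). Of 10 endothelial markers 7 were negative (median -0.53, 0 called). These calls stand beside 11.2% of all features called and 3.8% called negative. All 12 male germ cell markers were positive and called (median 5.29), and 6 of 10 epididymis markers were positive (median 0.85, 0 called). The part of these lists in the result for the MHC genes was not tested. In whole tissue a change in the number of cells of a type cannot be told apart from a change in RNA per cell. The number of calls depended on scaling: 3 members (Psmb9, Psmb10 and H2-DMb1) passed after scale normalization and 1 (Psmb9) after quantile normalization, beside 4.78% and 2.26% of all features, with every one of the 8 still negative. With pairings as replicates 13 passed, 12 of them negative and H2-M11 positive, beside 13.4% of all features. Leaving out each of the 34 arrays in turn, Psmb9, Psmb10 and H2-DMb1 passed every time, H2-DMa and H2-T22 32 times, H2-Q10 30 times, H2-Ke6 16 times and Tap1 12 times. Without the arrays of the last label date of experiment 2, H2-Ke6 and Tap1 lost their calls and H2-Aa gained one, so 7 passed (8.88% of all features).

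Promoter sequence was examined because class II and class I promoters share an upstream module. Its Y box is bound by NF-Y, which recognises CCAAT and whose site was searched as GATTGG, its reading on the other strand with 1 flanking base, and its X2 box by CREB/ATF factors, whose half-site is TGACG. RefSeq promoter windows (GRCm38.p6, from 250 bases before to 50 bases after the start) were found for 29 of 39 members; H2-Ab1 was not among them. Both strands were searched, and a gene was counted if any of its windows held the motif. GATTGG was found in 6 of 6 class II genes, 13 of 16 class I genes and 3 of 6 processing genes, against 18.2% of all 27025 genes with a window. TGACG was found in 1 of 6, 9 of 16 and 3 of 6, against 23% of all genes. The GATTGG match of H2-DMa lay 199 bases before the start, and another window of this gene held 0 matches. In the other class II genes GATTGG lay 35 to 62 bases before the start. The windows of Tap1 and Psmb9, which are divergent neighbours, overlap by 275 bases, so their counts are not independent. 4 promoters are printed 5′ to 3′ on the gene's strand with the matches to either motif, on either strand, in capitals: those of H2-Aa and H2-DMb1 for class II, H2-T22 for class I and Tap1 for processing, 3 of which passed the threshold in HF4 against HF4-REV.
H2-Aa (chr17:34287774-34288073, minus strand): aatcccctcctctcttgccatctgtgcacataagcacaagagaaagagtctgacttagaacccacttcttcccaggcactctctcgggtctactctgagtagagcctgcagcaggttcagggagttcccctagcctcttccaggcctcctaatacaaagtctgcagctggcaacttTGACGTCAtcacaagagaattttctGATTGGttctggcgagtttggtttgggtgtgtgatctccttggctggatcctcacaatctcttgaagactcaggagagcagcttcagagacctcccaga
H2-DMb1 (chr17:34152941-34153240, plus strand): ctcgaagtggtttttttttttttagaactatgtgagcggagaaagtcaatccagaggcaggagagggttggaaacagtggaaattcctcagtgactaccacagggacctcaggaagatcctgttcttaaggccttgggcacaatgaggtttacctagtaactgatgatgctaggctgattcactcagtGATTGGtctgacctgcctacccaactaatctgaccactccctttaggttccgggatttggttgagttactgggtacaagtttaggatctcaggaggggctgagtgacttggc
H2-T22 (chr17:36042693-36042992, minus strand): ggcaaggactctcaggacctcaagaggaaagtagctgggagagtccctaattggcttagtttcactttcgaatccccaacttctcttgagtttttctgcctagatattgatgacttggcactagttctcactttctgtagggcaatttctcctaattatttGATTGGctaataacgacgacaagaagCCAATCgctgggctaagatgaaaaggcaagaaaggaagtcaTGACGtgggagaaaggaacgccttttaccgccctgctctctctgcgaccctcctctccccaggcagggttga
Tap1 (chr17:34187306-34187605, plus strand): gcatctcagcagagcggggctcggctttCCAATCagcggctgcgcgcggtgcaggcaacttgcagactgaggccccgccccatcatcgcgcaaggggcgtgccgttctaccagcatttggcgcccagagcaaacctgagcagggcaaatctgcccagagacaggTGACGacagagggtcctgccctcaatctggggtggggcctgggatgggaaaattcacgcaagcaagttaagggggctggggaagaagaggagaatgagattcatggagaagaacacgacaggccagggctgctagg
GATTGG began 49 bases before the start in H2-Aa and 62 bases before it in H2-DMb1. In H2-Aa the TGACG matches on the 2 strands overlap in a palindrome whose first base lies 74 bases before the start. H2-T22 held GATTGG on both strands, and in Tap1 both motifs occurred in the region shared with Psmb9. Such a match is a string of letters, and no binding was measured.

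In HF4 against HF1, 30 of 39 members were negative, with medians of -0.66 for class II, -0.17 for class I and -0.47 for processing, against 0.01 for all features. H2-Aa stood at -1.21 and -2.16 on the 2 arrays (-1.57 ± 0.62, limma adjusted p = 0.287), Cd74 at -1.34 and -2.08 (-1.66 ± 0.75, adjusted p = 0.347) and H2-DMa at -1.35 and -1.79 (-1.53 ± 0.53, adjusted p = 0.231). H2-DMb1 (-1.09 ± 0.28, adjusted p = 0.129) and H2-T23 (-1.46 ± 0.49, adjusted p = 0.213) did not pass either. No member passed in limma, beside 2.81% of all features, and 14 had an unadjusted p under 0.05. Pairings share extracts, so p-values with pairings rather than experiments as replicates are too small. On that footing 15 members passed, all negative, beside 15% of all features. Among these 15 were H2-Aa, H2-Ab1, H2-DMa and H2-DMb1 of class II, H2-K1, H2-D1, H2-T22, H2-T23 and H2-M3 of class I, and B2m, Psmb8, Psmb9, Psmb10, Tap1 and Tap2.

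HF4 against HF3 gave smaller and less even values. The class II median was -0.35, the class I median -0.10 and the processing median -0.15, against 0.00 for all features; 0 members and 0 of all features passed in limma (0%), and 2 members had an unadjusted p under 0.05. The experiments differed in size. In experiment 2, H2-Aa stood at -1.61 and -2.19, Cd74 at -0.94 and -1.81 and H2-DMa at -0.94 and -1.47. In experiment 1 the same pairing gave 0.05 and -0.25 for H2-Aa, -0.54 and -0.39 for Cd74 and -0.16 and -0.35 for H2-DMa.

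In HF4 against HF0, 32 of 39 members were negative, and the processing genes had the lowest fitted median. Their median was -0.40, with 7 of 7 negative, against -0.21 for class II, -0.11 for class I and -0.03 for all features. Psmb9 was at -0.42 ± 0.11 (limma adjusted p = 0.141; -0.39 in experiment 1 and -0.46 in experiment 2), Psmb10 at -0.40 ± 0.11 (adjusted p = 0.176) and Tap2 at -0.44 ± 0.17 (adjusted p = 0.419). The fitted values of H2-Aa (-0.30 ± 0.49), Cd74 (-0.41 ± 0.59) and H2-DMa (-0.19 ± 0.42) were smaller than their standard errors. The direct pairing gave 0.20 and -0.58 in experiment 2 and 0.04 and -0.50 in experiment 1 for H2-Aa, and a class II median of -0.22 in experiment 2 and -0.32 in experiment 1. No member passed in limma, beside 4.21% of all features, of which 959 were positive and 4 negative; 7 members had an unadjusted p under 0.05, and 8 passed with pairings as replicates (11% of all features), all negative.

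In HF4 against STD the processing genes were negative in 7 of 7, with a fitted median of -0.37, and the class I median was -0.13. For class II the fitted median was 0.07, but the direct pairing of experiment 1 gave a median of -0.26, with 5 of 8 negative. In that pairing H2-Aa stood at -0.05 and -0.90, Cd74 at -1.41 and -2.24 and H2-DMa at -0.46 and -1.08, so the sign of class II in this comparison is not settled. Psmb9 (-0.50 ± 0.11, limma adjusted p = 0.134), Tap2 (-0.55 ± 0.17, adjusted p = 0.232), Psmb8 (-0.46 ± 0.16, adjusted p = 0.265) and H2-T22 (-0.60 ± 0.16, adjusted p = 0.187) were negative in both experiments. The comparisons of HF4 with HF0 and with STD share the HF4 extracts. No member passed in limma, beside 0.437% of all features; 9 had an unadjusted p under 0.05, and 7 passed with pairings as replicates (6.28% of all features). In HF3 against STD, 0 members and 0% of all features passed, and 4 members had an unadjusted p under 0.05. The fitted class II median was 0.28 against 0.00 for class I, and the direct pairing of experiment 1 gave 0.29 for class II. The class II median of the group values, however, was -0.04 in HF3 and 0.08 in STD of experiment 1. It was 0.39 and -0.38 in experiment 2, where HF3 and STD shared no array. The sign of class II is thus not settled in HF3 against STD either.

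In HF1 against HF0, 5 of 8 class II genes were positive, and none passed. H2-Aa stood at 1.32 and 1.01 (1.26 ± 0.62, limma adjusted p = 0.714), Cd74 at 1.03 and 0.88 (1.25 ± 0.75, adjusted p = 0.758), H2-DMa at 1.75 and 1.11 (1.34 ± 0.53, adjusted p = 0.689) and H2-T23 at 0.93 and 1.18 (1.21 ± 0.49, adjusted p = 0.689). H2-Ob (arrays at -0.73 and -0.20), H2-Oa (-0.27 and -0.23) and H2-Ea (fitted -0.07 ± 0.15) were negative. B2m had the lowest unadjusted p (0.85 ± 0.24, adjusted p = 0.689), although its arrays lay at 2.41 and -0.15. Medians were 0.41 for class II, 0.11 for class I and 0.17 for processing, against -0.03 for all features. No member and 0% of all features passed in limma; 3 members had an unadjusted p under 0.05, and B2m alone passed with pairings as replicates (1.17% of all features).

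**Figure D2:**
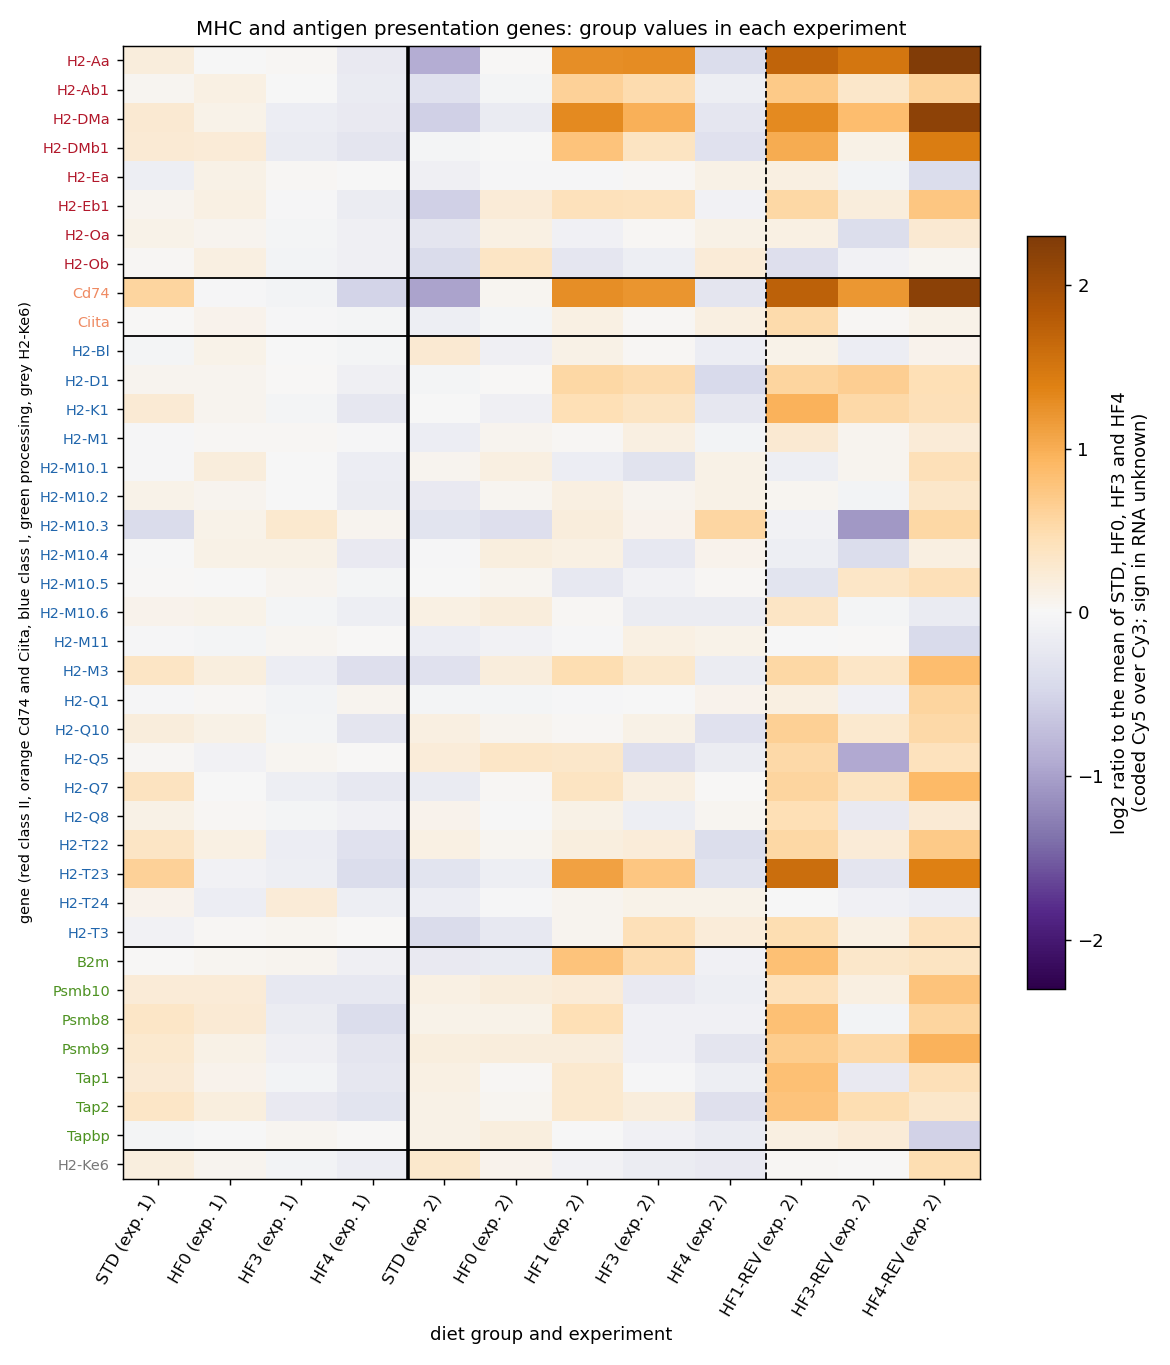
Group values of the 39 genes in each experiment as a colour scale of log2 ratios to the mean of STD, HF0, HF3 and HF4; rows are ordered by class and the thick line separates the experiments. H2-Aa, H2-DMa, Cd74 and H2-T23 carry strong colours in HF1, HF1-REV and HF4-REV of experiment 2. H2-Aa, H2-DMa and Cd74 do so in HF3 and HF3-REV of that experiment as well. Experiment 1 is pale for nearly all genes.

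Over the groups of experiment 2, H2-Aa spanned 3.16 log2 units, Cd74 3.16, H2-DMa 2.70 and H2-DMb1 1.76, against 1.04 for H2-Ab1, 1.29 for H2-Eb1 and a median of 0.73 over all features. The class II median range was 1.16 in experiment 2 and 0.31 in experiment 1, that of class I 0.77 and 0.27, and that of all features 0.73 and 0.23. Experiment 2 also held 4 more groups. Relative to HF0 of that experiment, H2-Aa was at 2.28 in HF4-REV, 1.70 in HF1-REV, 1.501 in HF3-REV and 1.29 in HF3. It was at 1.26 in HF1, 0.00 in HF0 itself, -0.41 in HF4 and -0.88 in STD. With a standard error of 0.62 on the difference of HF4 from HF4-REV, neighbours in this order cannot be told apart.

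The experiments disagreed in HF0 against STD. In experiment 2, H2-Aa was positive on all 4 arrays (1.30, 1.03, 0.58 and 0.62), and so was Cd74 (1.70, 1.39, 0.84 and 0.21). In experiment 1 both were negative on both arrays, at -0.89 and -1.17 for H2-Aa and -0.26 and -0.62 for Cd74. The same opposition was seen for H2-DMa, H2-Ob and H2-M3, so 5 of 39 members had all arrays of one experiment opposed to all arrays of the other, as did 11% of all features. The class II median of the direct pairings was -0.32 in experiment 1, and 0.39 and 0.41 in the 2 pairings of experiment 2. The fitted median over both experiments was 0.19 for class II, with 8 of 8 positive, against 0.03 for class I and 0.01 for all features. In limma 0 members and 0% of all features passed, and no member had an unadjusted p under 0.05. In experiment 2 the STD extract also stood apart in the epididymis markers, with a median of 3.84. The part of these markers in the result was not tested.

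HF3 against HF0 showed the same disagreement. H2-Aa stood at 1.61 and 0.73 in experiment 2, but at -0.53 and -1.05 in experiment 1, and H2-DMa at 1.52 and 0.92, but at -0.74 and -1.04. Cd74, H2-DMb1, H2-T22 and H2-T23 were opposed in the same way, in all 6 of 39 members, against 10.3% of all features. The class II median of the direct pairing was 0.35 in experiment 2 and -0.41 in experiment 1. In limma 0 members and 0% of all features passed in HF3 against HF0 and in HF3 against HF1, where 1 and 3 members had an unadjusted p under 0.05. In HF4 against HF0 no member was opposed, against 6.2% of all features.

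**Figure D3:**
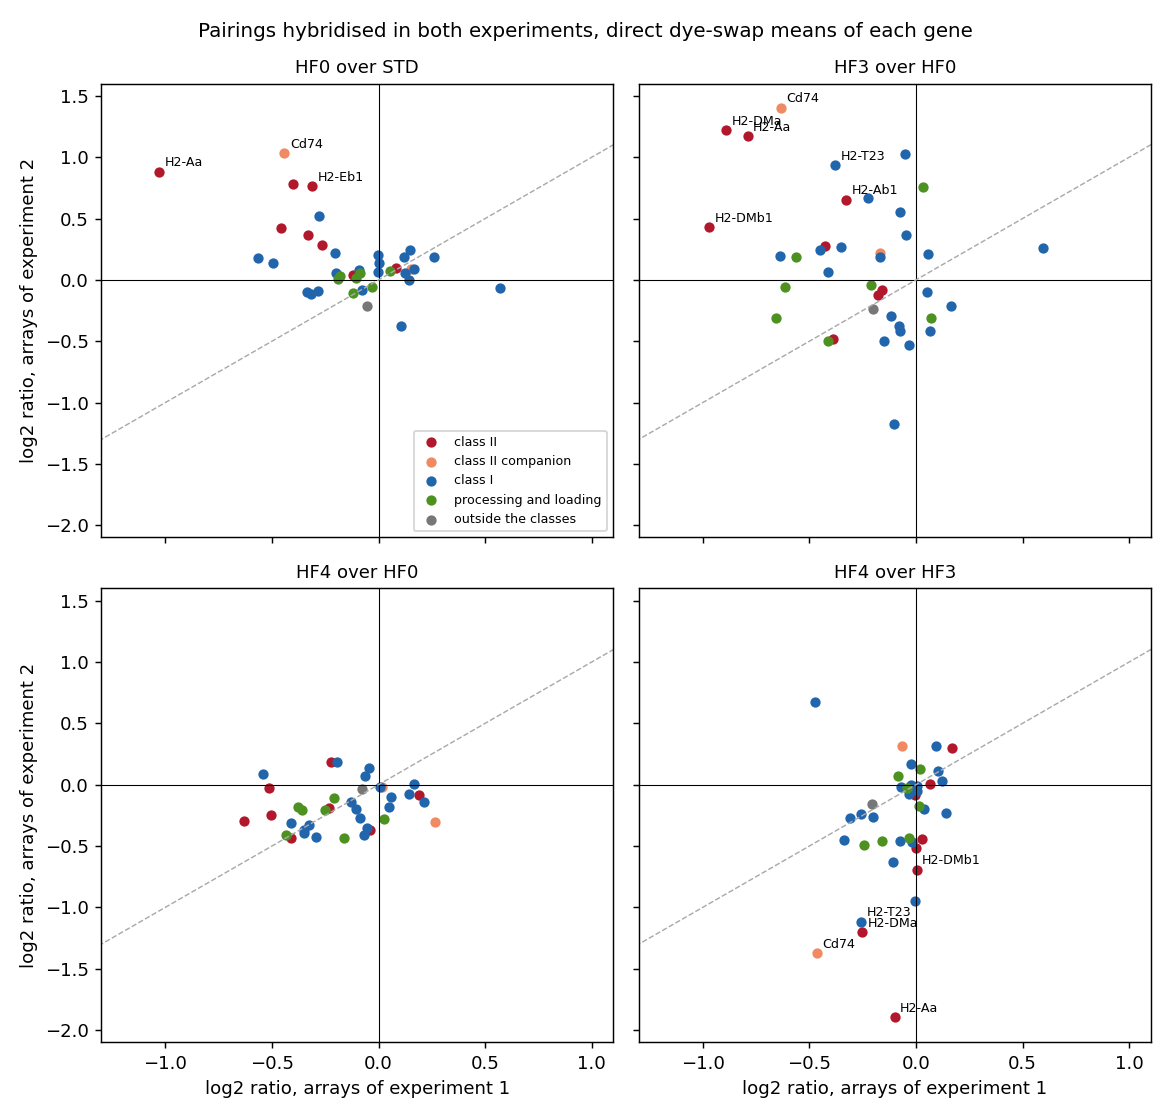
Direct dye-swap means of each member in the pairings hybridised in both experiments, with log2 ratios of experiment 1 on the horizontal axis and of experiment 2 on the vertical axis; the dashed line marks equal values. In HF0 over STD and HF3 over HF0, H2-Aa and Cd74 lie in the upper left quadrant, positive in experiment 2 and negative in experiment 1.

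In HF1 against HF1-REV, 32 of 39 members were negative, with medians of -0.14 for class II, -0.18 for class I and -0.35 for processing (7 of 7 negative), against -0.01 for all features. Tap1 stood at -0.42 and -0.64 (-0.53 ± 0.16, limma adjusted p = 1), Psmb9 was at -0.49 ± 0.16 (adjusted p = 1) and H2-Q10 at -0.61 ± 0.17 (adjusted p = 0.883). H2-DMa (-0.01 ± 0.59) and H2-Aa (-0.44 ± 0.69) had arrays of either sign. In limma 0 members and 0% of all features passed, and 3 members had an unadjusted p under 0.05.

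In HF3 against HF3-REV, Psmb9 was at -0.63 ± 0.14 (limma adjusted p = 0.132) and Psmb10 at -0.36 ± 0.14 (adjusted p = 0.310), each negative on both arrays. H2-M10.3 had the opposite sign (1.25 ± 0.30, adjusted p = 0.144), but its pairings in experiment 2 added up worse than those of 99.9% of features. Fitted medians were -0.03 for class II, 0.07 for class I and -0.25 for processing, with HF3 averaged over both experiments. The direct pairing, made in experiment 2 only, gave 0.16 for class II, with 2 of 8 negative. It gave 0.09 for class I and -0.28 for processing, so the sign of class II is not settled here. No member passed in limma, beside 0.0874% of all features, and 4 had an unadjusted p under 0.05. Psmb9, Psmb10 and Tap2 were the 3 of 39 members negative on all 6 arrays that pair a high fat group with its reversal group. The share of all features negative on these arrays was not counted, so this is a description. Psmb9 and Psmb10 passed in HF4 against HF4-REV. Whether the 3 comparisons differ was not tested.

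Class II and class I were set against each other through the difference of their medians. It was -0.37 in HF4 against HF4-REV, -0.49 in HF4 against HF1, -0.25 in HF4 against HF3, 0.30 in HF1 against HF0 and 0.27 in HF3 against STD. The SD of this difference between the experiments, pooled over the comparisons made in both, was 0.26. The value for HF4 against HF3 lay within that SD. So did the other 7 comparisons, which ran from -0.18 (HF3 against HF1) to 0.20 (HF4 against STD). These are fitted values, and the direct pairing of HF3 over HF1 gave a difference of 0.05. The difference also depended on the dye. In HF4 over HF4-REV it was 0.39 with HF4 in Cy5 and -1.32 with HF4 in Cy3. With the classical genes alone (H2-Aa, H2-Ab1 and H2-Eb1 minus H2-K1 and H2-D1) it was -0.006 in HF4 against HF1. Within class II, H2-Aa, H2-DMa and H2-DMb1 had the widest ranges over the groups of experiment 2, and H2-Ea (0.55), H2-Oa (0.65) and H2-Ob (0.78) the narrowest.

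**Figure D4:**
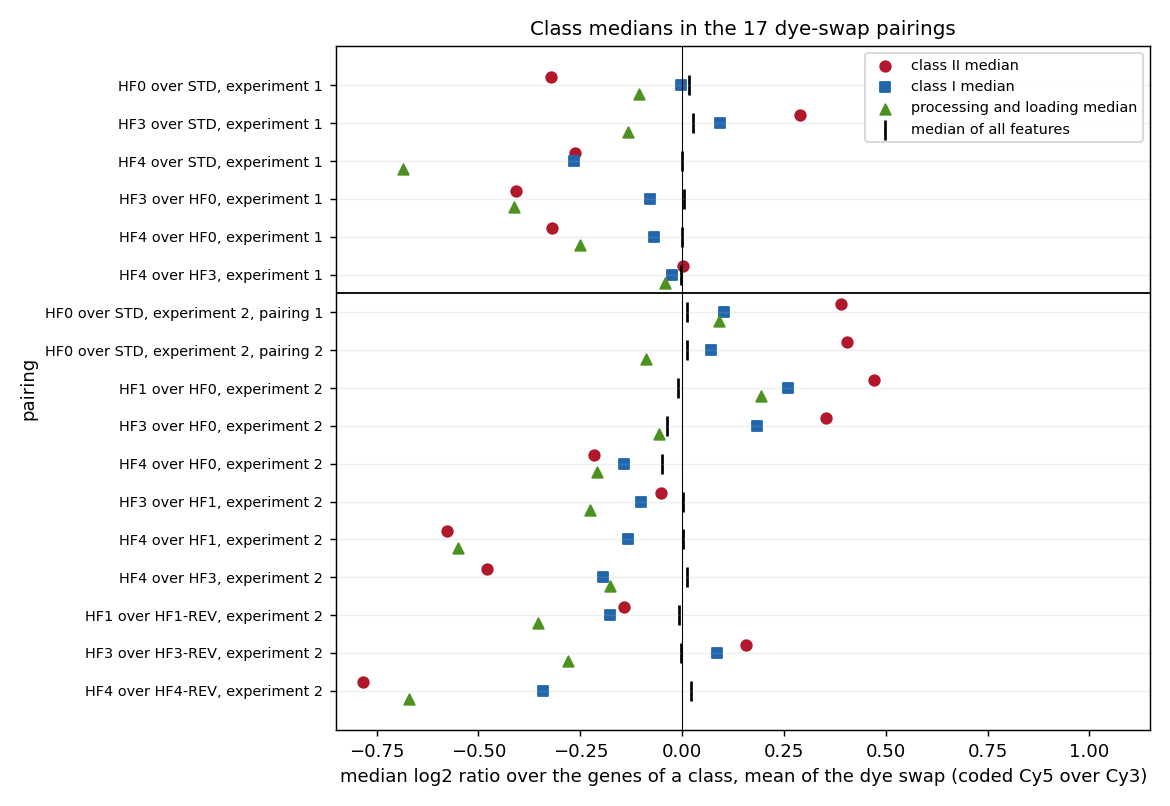
Median log2 ratio over the class II genes (circles), class I genes (squares) and processing genes (triangles) in each of the 17 dye-swap pairings, with the median of all features as a black bar. Class II lies lowest in HF4 over HF4-REV (-0.78), processing lies at -0.67 there and at -0.685 in HF4 over STD of experiment 1, and class II changes side between the experiments in HF0 over STD and HF3 over HF0.

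Other genes of the pathway, listed by function, gave 28 measured genes of 31. In HF4 against HF4-REV, 25 of 28 were negative (median -0.50) and 4 (14.3%) passed, all negative, beside 11.2% of all features called and 3.8% called negative: the interferon regulatory factor Irf1 (-1.25 ± 0.21, limma adjusted p = 0.0227), the RFX subunit Rfxank of the class II enhanceosome (-0.80 ± 0.15, limma adjusted p = 0.0267), the proteasome activator Psme2 (-0.91 ± 0.20, limma adjusted p = 0.0411) and the tapasin-like Tapbpl (-0.63 ± 0.14, limma adjusted p = 0.0442). Cathepsin S (Ctss), which degrades the invariant chain, was at -1.13 ± 0.29 (adjusted p = 0.0564). In HF4 against HF1, 23 of 28 were negative (median -0.22), and in HF4 against HF0 25 of 28 (median -0.15), with 0 passing in limma in either. The costimulatory Cd80 (0.47 ± 0.38) and Cd86 (0.20 ± 0.28) were positive in HF4 against HF4-REV.

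**Figure D5:**
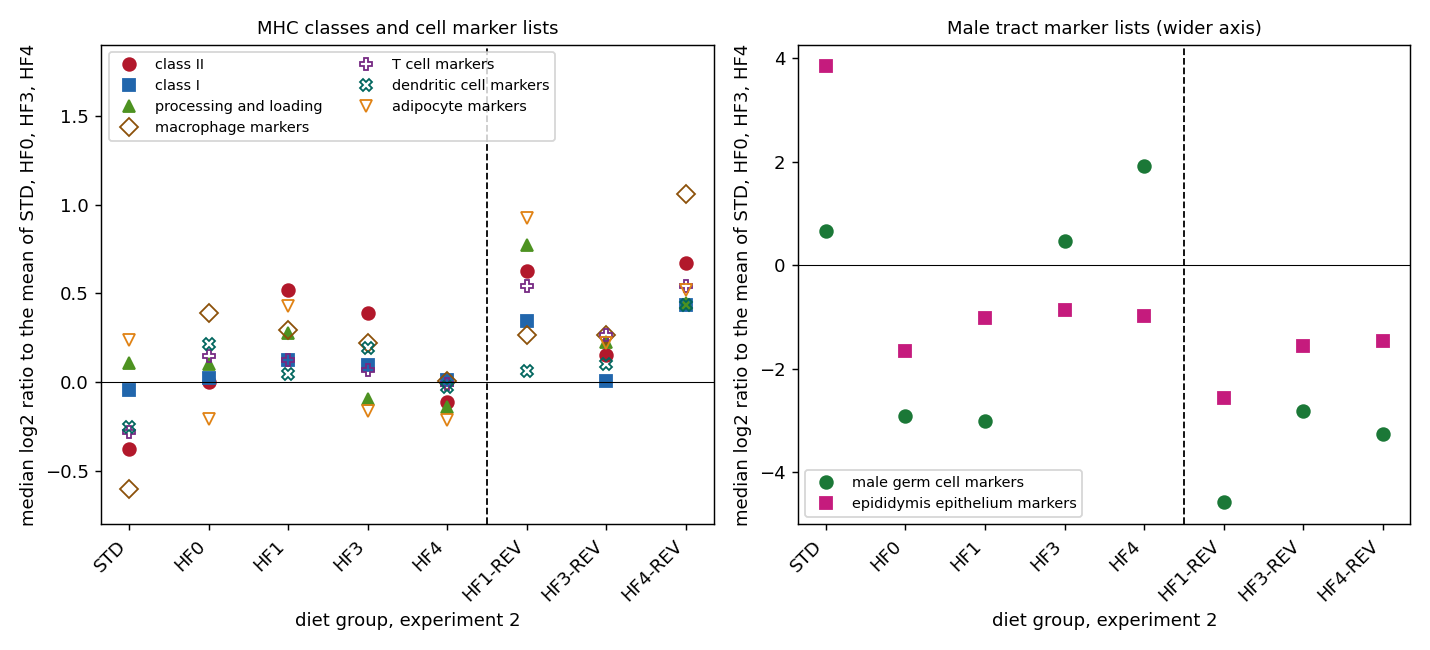
Median log2 ratios, relative to the mean of STD, HF0, HF3 and HF4, of the MHC classes and of marker lists in the 8 groups of experiment 2, with the male tract lists on a wider axis at the right. Class II (0.67) and macrophage markers (1.06) are highest in HF4-REV, epididymis markers stand at 3.84 in STD, and male germ cell markers are highest in HF4 (1.91).

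Class II genes followed each other unevenly over the 12 group values. Against the median profile of class II, which contains each of them, Pearson's r was 0.98 for H2-Ab1, 0.96 for H2-Eb1, 0.95 for H2-DMa, 0.93 for H2-Aa and 0.91 for H2-DMb1, and 0.44 for H2-Oa, -0.14 for H2-Ob and -0.19 for H2-Ea. Outside class II it was 0.96 for Cd74, 0.67 for Ciita, 0.92 for H2-M3, 0.91 for H2-T23, 0.89 for B2m, 0.82 for H2-K1 and 0.79 for H2-D1, while Tapbp was at -0.38. Among 5030 features with an SD of at least 0.3 over the group values, the 8 named genes that are no members with the highest r were Olfr771 (0.97), Tsg101, Commd8, Cbr2, Irak2, Prr32, Mip and Tspan4 (0.95). The points share extracts and arrays, so these r are descriptions.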

How the data were processed

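Epididymal fat RNA was compared on 34 two-colour arrays. The authors deposited 1 log2 ratio per probe and array (base 2 taken), with array medians between -0.062 and 0.046; how they corrected background and normalized, and which dye was the numerator, the labels do not say. No intensities were used, so dim probes stayed in, the presence of a transcript could not be checked, and precision is limited by the number of arrays.

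Of the probes, 21082 had 1 annotated symbol, 30 several and 4232 none; symbols were updated through the gene ID. Arrays were centred on their medians, turned for dye and averaged over each swap, and probes of a gene were averaged (3 members had more than 1). Least squares gave group values per experiment, set relative to its mean of STD, HF0, HF3 and HF4. They were tested with limma 3.58.1 in R 4.3.3, blocking on the experiment (residual degrees of freedom 3, prior 3.16). P-values were Benjamini-Hochberg adjusted over 22879 features. The procedure was tested on simulated data. HF1 and the REV groups, with n = 1, were assumed to vary like the others, and p-values measure the spread between extracts, which may be technical.

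Alternatives were other centring or normalization, probe medians, a robust prior, pairings as replicates, arrays, experiments or a label date left out, and other class definitions. Named were the core genes of each class, every member past the threshold, and in each comparison up to 4 class I, 4 class II and 3 processing members with the largest values of 1 sign on all arrays. Members, lists and tests were chosen with earlier results of these data known.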

Additional observations from a re-analysis of the deposited data

Results flagged for a closer look

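In HF0 against STD, 5 members had all arrays of experiment 1 negative and all arrays of experiment 2 positive; beside 11% of all features opposed in either way, and the difference between the experiments was not tested. The mean of the arrays was 0.88 in experiment 2 and -1.03 in experiment 1 for H2-Aa, 0.36 and -0.33 for H2-DMa, 0.78 and -0.40 for H2-Ob, 1.04 and -0.44 for Cd74, and 0.52 and -0.28 for H2-M3.

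In HF3 against HF0, 6 members were opposed in the same way, beside 10.3% of all features opposed in either way, again untested. The mean was 1.17 in experiment 2 and -0.79 in experiment 1 for H2-Aa, 1.22 and -0.89 for H2-DMa, 0.43 and -0.97 for H2-DMb1, 1.41 and -0.63 for Cd74, 0.24 and -0.45 for H2-T22, and 0.93 and -0.38 for H2-T23. In HF4 against HF3, H2-DMb1 averaged -0.69 in experiment 2 and 0.003 in experiment 1, where both arrays lay barely above 0; 6.52% of all features were opposed there, and this difference was not tested either.

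On the 4 arrays of HF0 over STD in experiment 2, 1 value of H2-M3 (0.91) stood apart from the others (0.37, 0.39 and 0.40). Its gap was 0.939 of the whole range, and chance marks about 1 in 20 such groups.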

How the results depend on the processing

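Over the 468 fitted values of members in 12 comparisons, none changed side past the threshold under any alternative, and probe medians and a robust prior changed no call. Only 8 of these values passed with the main settings, so the first count says little about the stability of the others. In HF4 against HF4-REV, where 8 members passed, 3 passed after scale normalization (4.78% of all features), 1 after quantile normalization (2.26%), 13 with pairings as replicates (13.4%) and 16 without the STD arrays of experiment 2 (21.3%), beside 11.2% with all arrays. Pairings as replicates also gave 7 calls in HF4 against STD (6.28% of all features) and 8 in HF4 against HF0 (11%). They gave 15 in HF4 against HF1 (15%), and 1 each in HF3 against HF0 (5.45%) and HF1 against HF0 (1.17%). Pairings share extracts, so these p-values are too small.

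Leaving out 1 array at a time moved the 8 calls of HF4 against HF4-REV between 3 and 23. The count was 3 without HF3 with HF0 replicate 2 (6.61% of all features), 5 each without HF0 with STD replicate 2 (8.15%), HF4 with HF3 replicate 1 (8.55%) or HF3 with HF1 replicate 2 (8.76%), and 23 without HF4 with HF4-REV replicate 1 (28.2%), all of experiment 2. It ran from 0 to 5 in HF3 against HF3-REV (2 without HF3 with HF3-REV replicate 1, 5 without its replicate 2), from 0 to 1 in HF4 against HF0 (1 without HF4 with HF0 replicate 2 of experiment 2), in HF4 against HF1 (1 without HF3 with HF0 replicate 1 of experiment 2) and in HF1 against HF1-REV (1 without its replicate 2), and stayed at 0 in HF0 against STD, HF3 against STD, HF4 against STD, HF3 against HF0, HF1 against HF0, HF3 against HF1 and HF4 against HF3. Shares of all features are not given for the counts outside HF4 against HF4-REV, so those counts are not set against them. An array left out leaves its pairing with 1 dye orientation.

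The class II minus class I median ran, over the arrays left out, from -1.35 to 0.23 in HF4 against HF4-REV, from -0.85 to -0.12 in HF4 against HF1, from -0.48 to 0.06 in HF4 against HF3, from -0.31 to 0.063 in HF4 against HF0, from 0.02 to 0.34 in HF4 against STD, from -0.52 to 0.065 in HF3 against HF1, from -0.06 to 0.12 in HF3 against HF0, from 0.11 to 0.37 in HF3 against STD, from 0.00 to 0.67 in HF1 against HF0, from 0.04 to 0.32 in HF0 against STD, from -0.63 to 0.042 in HF3 against HF3-REV and from -0.12 to 0.37 in HF1 against HF1-REV. The extremes came from leaving out arrays 1 and 2 of the pairing itself in experiment 2 for HF4 against HF4-REV, HF1, HF3 and HF0, for HF1 against HF0 and HF1-REV, and for HF3 against HF3-REV; in HF3 against HF1 from HF1 with HF0 replicate 2 and HF4 with HF1 replicate 2, and in HF3 against HF0 from HF3 with HF0 replicate 1 and HF4 with HF0 replicate 1. It moved to -0.15 in HF4 against STD without the STD arrays of experiment 2, and to -0.036 in HF4 against HF0 without the last label date. Experiment 1 alone gave -0.10 in HF3 against STD, and experiment 2 alone -0.074 in HF4 against HF0 and 0.10 in HF3 against HF1. With H2-Aa, H2-Ab1 and H2-Eb1 minus H2-K1 and H2-D1 alone it was 0.41 in HF0 against STD, -0.028 in HF4 against HF0, -0.006 in HF4 against HF1 and 0.32 in HF3 against HF3-REV. Counting Cd74 and Ciita in class II and B2m in class I, an alternative added after seeing the data, moved none of the 12 differences by more than the spread between experiments. The cause of these changes was not tested. No paired analysis was possible because replicate numbers only name arrays in accession order.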
